A study of Mus musculus with 6 samples.

Results

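The cholesterol genes described here were a list of 28 named genes of sterol synthesis, its control, and sterol transport. Their members were found as the probe sets that name exactly 1 gene of the list, and where a gene had several, its brightest on average was used. In all, 26 of the 28 genes were measured, through 28 of the 28853 probe sets and among 19938 named genes. Acat2 and Soat1 had no probe set naming them alone, a probe set shared by Srebf2 and other genes was left out, and Idi1 and Fdft1 had 2 probe sets each. RNA came from MS5 cells, an established line of mouse bone marrow stroma, kept for 7 days with 1 μM PD184352 (MEKi), which inhibits the kinases MEK1 and MEK2, or with the diluent DMSO alone, in alpha-MEM with fetal bovine serum. There were 3 independent experiments, numbered series 1, 2 and 3 in the sample titles, each with 1 MEKi and 1 diluent array, so that n = 3 per condition, and the values are log2 signals.

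The median of all probe sets lay between 6.29 and 6.38 on the 6 arrays. The median difference of all probe sets between MEKi and diluent was −0.0031 in series 1, 0.10 in series 2 and 0.014 in series 3, and 75.0% of probe sets were higher with MEKi in series 2. Centring each array on its median took this shift out of series 2. Values are as deposited unless stated, and centred values are given beside several results. Of 10 stromal markers, 8 had levels of 9.24 to 12.5, while Thy1 and Lepr were below the array median on all 6 arrays. Endothelial markers were below it on every array (4 of 4 genes), as were Ptprc, Adgre1, Csf1r and Itgam of 7 leukocyte markers, whereas Cd14, Lyz2 and Cd68 had levels of 6.62 to 11.4. Adipocyte markers were present, with 6 of 7 at 7.86 to 12.6 and Lep at 4.85 to 5.21.

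Cholesterol is made from acetyl-CoA through mevalonate, isoprenoid diphosphates, squalene and lanosterol, by enzymes of the cytosol and the endoplasmic reticulum. When membrane sterol is scarce, the escort protein SCAP carries the transcription factors SREBP1 and SREBP2 out of the endoplasmic reticulum for cleavage, and the released factors drive transcription of these enzymes, while INSIG proteins hold SCAP back when sterol is plentiful. Surplus cholesterol is esterified or exported by ABCA1 and ABCG1, whose genes are targets of the oxysterol receptors LXR, and NPC1 and NPC2 let it leave the lysosome. Stromal cells of the marrow can also store lipid as they become adipocytes.

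The promoter windows, from 250 bases before to 50 bases after the gene start in RefSeq (GRCm38.p6), are shown first because SREBP factors act at these promoters together with NF-Y and SP1. A window was matched to 22 of the 28 listed genes, and both strands were searched for the sterol regulatory element TCACNCCAC, the NF-Y box CCAAT and the GC box GGGCGG. The NF-Y box was found in 19 of 22 genes (86.4%), against 41.1% of 27025 genes with a window, and the GC box in 21 of 22 (95.5%), against 38.2%. The sterol regulatory element in these letters was found in 1 of 22, Hmgcs1, against 1.44% of all genes. The windows of Hmgcs1 (chr13:119690101-119690400, plus strand), Idi1 (chr13:8885356-8885655, plus strand) and Mvd (chr8:122443373-122443672, minus strand) follow, 5′ to 3′, with the matches in capitals. Hmgcs1 was chosen for its sterol regulatory element, and Idi1 and Mvd, chosen after their values were seen, for the widest spread between series and for a difference of the same direction in all 3 series.
Hmgcs1: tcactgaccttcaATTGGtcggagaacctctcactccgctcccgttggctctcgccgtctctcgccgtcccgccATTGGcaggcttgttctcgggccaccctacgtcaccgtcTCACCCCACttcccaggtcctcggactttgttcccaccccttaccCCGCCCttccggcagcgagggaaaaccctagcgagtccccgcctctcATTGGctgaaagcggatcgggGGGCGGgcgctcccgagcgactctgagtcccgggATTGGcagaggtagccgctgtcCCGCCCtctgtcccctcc
Idi1: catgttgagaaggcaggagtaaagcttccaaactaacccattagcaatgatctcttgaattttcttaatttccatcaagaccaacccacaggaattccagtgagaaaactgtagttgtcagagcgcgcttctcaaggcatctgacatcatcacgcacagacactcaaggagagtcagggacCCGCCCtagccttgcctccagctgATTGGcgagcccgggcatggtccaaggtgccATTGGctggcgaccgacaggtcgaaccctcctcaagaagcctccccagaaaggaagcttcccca
Mvd: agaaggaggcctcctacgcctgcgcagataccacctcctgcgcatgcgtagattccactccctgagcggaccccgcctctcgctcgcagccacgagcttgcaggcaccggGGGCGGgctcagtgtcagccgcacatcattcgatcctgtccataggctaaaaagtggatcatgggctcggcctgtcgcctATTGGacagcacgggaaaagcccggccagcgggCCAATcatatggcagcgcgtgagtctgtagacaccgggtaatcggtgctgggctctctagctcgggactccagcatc

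In the Hmgcs1 window the sterol regulatory element began at position −137, counted from the gene start, with NF-Y boxes beginning at −237, −176, −45 and 11 and GC boxes at −92, −24 and 33. The Idi1 window had NF-Y boxes at −45 and −14 and a GC box at −69, and the Mvd window had NF-Y boxes at −60 and −27 and a GC box at −140. No matches overlapped in these windows. The matches describe letters in a window and were not tested as binding sites.

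The comparison of MEKi with diluent asked how blocking MEK changed the stroma. None of the 26 cholesterol genes passed an adjusted p under 0.05 in limma with the series as a block (0 of 26, against 0.159% of all probe sets, adjusted p from 0.418 to 0.993). At an unadjusted p under 0.05 there were 3 of 26, Mvd, Fdft1 and Ebp, against 9.89% of all probe sets. The methods' analysis of variance, run here without a series term, also gave 0 of 26 after adjustment, and 0 of 28853 over all probe sets. The methods name no such adjustment. At an unadjusted p of at most 0.05 and 1.5-fold it gave 0 of 26, and 44 of 28853 over all probe sets. The paper's crossing of its 3 experiments was not repeated. In the limma fit with the series as a fixed block, the 95% intervals of all 26 fold changes lay within 1.5-fold of no change in either direction. They ran from 0.718-fold, the lower bound of Mvd, to 1.36-fold, the upper bound of Hsd17b7, and 23 of them included 1. This bound belongs to that fit. With the series as a random block the SE was 0.38 for Idi1 (0.16 as a fixed block) and 0.27 for Hmgcs1 (0.10), while that of Ebp was 0.075 (0.084). The median log2 fold change was 0.027 over the cholesterol genes and 0.039 over all named genes, with 16 members fitted above and 10 below 0. With arrays centred the member median was −0.0051, and Pmvk, Sqle and Abca1 were then fitted below 0. The limma p-values of this comparison set the mean difference between MEKi and diluent against a moderated spread. That spread joins a gene's own variation over the 3 series (2 residual degrees of freedom) with a prior from all probe sets (5.17 degrees of freedom). The p-values do not measure differences in level between series, which the block takes out.

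**Figure D1:**
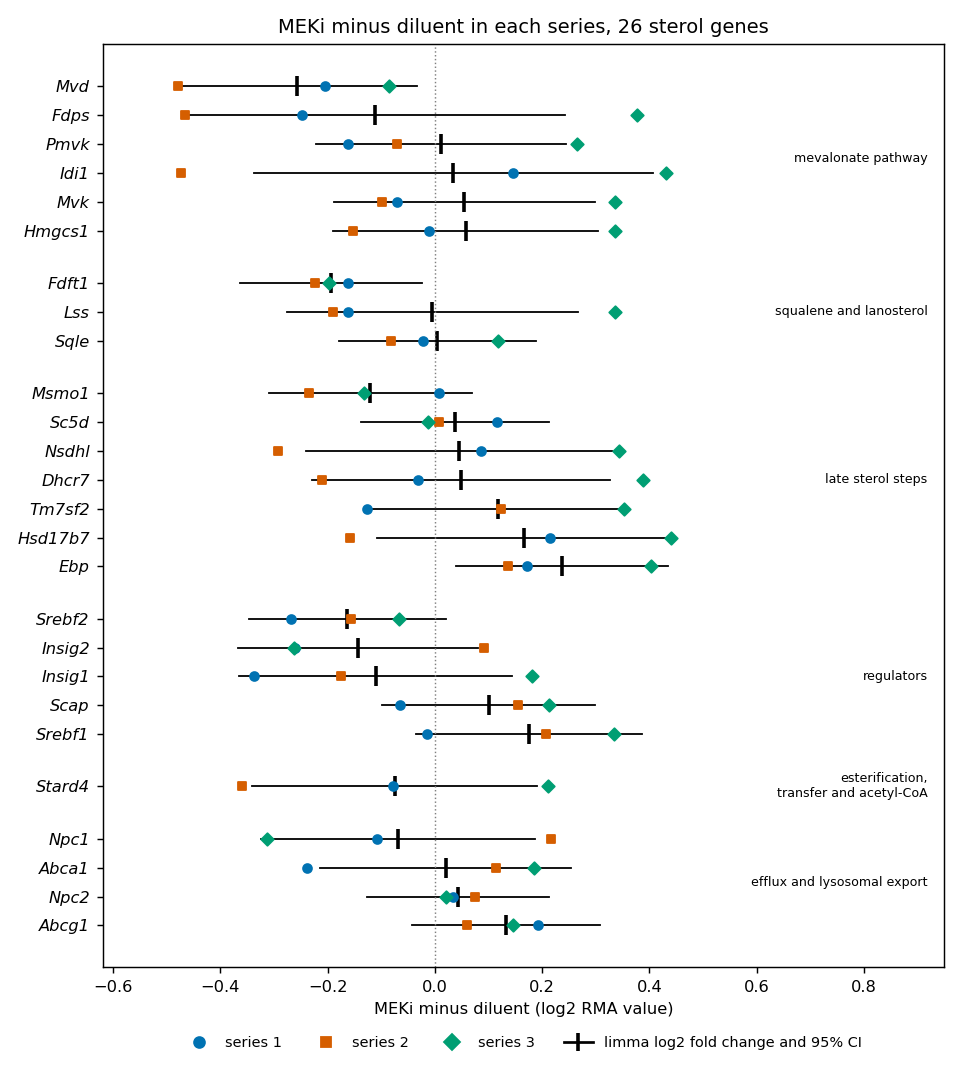
Difference in log2 signal, MEKi minus diluent, of the 26 measured cholesterol genes in series 1, 2 and 3, with the fitted log2 fold change and its 95% interval. 6 genes had 1 direction in all 3 series, and 0 of 26 passed the adjusted threshold.

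Direction was the same in all 3 series for 6 of 26 genes, against 31.8% of all probe sets. Ebp, Abcg1 and Npc2 were higher with MEKi in each (3 of 26, against 23.8%), and Mvd, Fdft1 and Srebf2 were lower in each (3 of 26, against 7.98%). With arrays centred, 4 of 26 kept a single direction, against 32.2%, since Abcg1 and Npc2 no longer did: Ebp was higher in each series (1 of 26, against 17.3%), and Mvd, Fdft1 and Srebf2 were lower (3 of 26, against 14.9%). Ebp was also the member whose MEKi arrays all lay above its diluent arrays (1 of 26, against 7.86%).

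In the mevalonate pathway, which makes the isoprenoid units of sterols, none of 6 enzymes passed the adjusted test, and Mvd had the largest fold change by size. Mvd, the decarboxylase that yields isopentenyl diphosphate, had levels of 6.68, 7.13 and 6.93 with MEKi in series 1, 2 and 3, against 6.89, 7.61 and 7.01 with diluent. The MEKi array was the lower of the pair in every series, most in series 2, although the groups overlapped. Its log2 fold change was −0.26 (SE 0.094, 95% interval −0.48 to −0.034, limma adjusted p = 0.439), and it was −0.15 without series 2.

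Hmgcs1, the synthase that condenses acetyl-CoA with acetoacetyl-CoA, had levels of 8.48, 9.72 and 9.54 with MEKi and 8.50, 9.87 and 9.20 with diluent. Both arrays of series 1 were lower than all the others, while the pairs differed by −0.012, −0.15 and 0.34. Its fitted log2 fold change was 0.057 (SE 0.10, adjusted p = 0.899). Idi1, the isomerase that interconverts the isoprenoid diphosphates, had 6.69, 8.16 and 7.65 with MEKi and 6.55, 8.63 and 7.22 with diluent. Its differences were 0.15, −0.47 and 0.43, opposite in series 2 and 3, and its second probe set gave 0.11, −0.38 and 0.33. Fdps, which makes farnesyl diphosphate, differed by −0.25, −0.47 and 0.38 (log2 fold change −0.11). The kinases Mvk and Pmvk had fold changes of 0.055 and 0.011 on the log2 scale, and that of Pmvk was −0.021 with arrays centred.

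Of the 3 enzymes that lead from farnesyl diphosphate to lanosterol, Fdft1 was lower with MEKi in every series, though not past the adjusted threshold. Fdft1, the squalene synthase, had 9.20, 9.86 and 9.57 with MEKi against 9.36, 10.08 and 9.77 with diluent. The differences of −0.16, −0.22 and −0.20 were close to each other, while the groups overlapped. The log2 fold change was −0.19 (SE 0.072, 95% interval −0.36 to −0.024, adjusted p = 0.444), while the second Fdft1 probe set differed by 0.052, −0.17 and −0.23. Sqle, the squalene epoxidase that performs the first oxygenation of the pathway, had 8.28, 9.37 and 9.11 with MEKi and 8.30, 9.45 and 8.99 with diluent. Its pairs were within 0.12 of each other while series 1 lay far below the other series, and its fold change was 0.0045 on the log2 scale, or −0.028 with arrays centred. Lss, the cyclase that forms lanosterol, differed by −0.16, −0.19 and 0.34 (log2 fold change −0.0054).

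The 7 enzymes of the late sterol steps had fold changes of −0.12 to 0.24 on the log2 scale, and none passed the adjusted test. Ebp, the sterol isomerase known as emopamil binding protein, had 9.74, 9.64 and 9.71 with MEKi against 9.56, 9.50 and 9.31 with diluent. The lowest MEKi array was above the highest diluent array, and the differences were 0.17, 0.14 and 0.40. The log2 fold change was 0.24 (SE 0.084, 95% interval 0.039 to 0.43, adjusted p = 0.418), and 0.15 without series 3.

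Hsd17b7, the ketoreductase of sterol demethylation, had 8.35, 8.65 and 8.68 with MEKi and 8.14, 8.81 and 8.24 with diluent. It was higher with MEKi in series 1 and 3 and lower in series 2 (0.17, SE 0.12). Tm7sf2, a sterol reductase of the same segment, had 6.82, 7.50 and 7.31 with MEKi and 6.95, 7.37 and 6.96 with diluent, and only series 1 was lower with MEKi (0.12, SE 0.10). Msmo1, the methylsterol oxidase that begins demethylation, had 8.44, 9.24 and 8.86 with MEKi and 8.43, 9.47 and 8.99 with diluent. The pair of series 1 was nearly equal and the other pairs were lower with MEKi (−0.12, SE 0.081). The dehydrogenase Nsdhl differed by 0.086, −0.29 and 0.34, the desaturase Sc5d by 0.12, 0.0082 and −0.012, and Dhcr7, the reductase that ends a branch of the pathway, by −0.032, −0.21 and 0.39.

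The regulators had fold changes of both signs, and none of 5 passed the adjusted test. Srebf1, which encodes SREBP1, had 8.51, 8.88 and 8.92 with MEKi and 8.53, 8.68 and 8.59 with diluent. Its MEKi array was higher in series 2 and 3 and nearly level with diluent in series 1 (−0.015), for a log2 fold change of 0.18 (SE 0.090, adjusted p = 0.584). Srebf2, which encodes SREBP2, had 8.92, 9.38 and 8.88 with MEKi and 9.18, 9.54 and 8.94 with diluent. It was lower with MEKi in every pair, by the least in series 3, for a log2 fold change of −0.16 (SE 0.078, adjusted p = 0.554).

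Insig1, itself an SREBP target, had 9.74, 10.64 and 10.33 with MEKi and 10.08, 10.82 and 10.15 with diluent. MEKi arrays were lower in series 1 and 2 and higher in series 3 (log2 fold change −0.11, SE 0.11). Insig2, the related retention protein, had 10.21, 10.28 and 10.64 with MEKi and 10.47, 10.18 and 10.91 with diluent, and here series 2 went against the other series (−0.14, SE 0.095). Scap, the SREBP escort, differed by −0.066, 0.15 and 0.21 (log2 fold change 0.10).

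For sterol transport, Abca1, which loads cholesterol onto lipid-poor apolipoproteins, had 8.25, 9.43 and 9.28 with MEKi and 8.49, 9.32 and 9.09 with diluent. The arrays of series 1 were the lowest of both conditions, and the fold change was 0.020 on the log2 scale (SE 0.099), or −0.012 with arrays centred. Abcg1, which exports cholesterol to lipoproteins, had 6.58, 6.90 and 6.69 with MEKi and 6.39, 6.84 and 6.54 with diluent. It was higher with MEKi in every pair (0.13, SE 0.074, adjusted p = 0.622), a direction that series 2 lost when arrays were centred. The lysosomal exporters Npc1 and Npc2 had fold changes of −0.068 and 0.043 on the log2 scale, and Stard4, a sterol transfer protein of the cytosol, one of −0.075.

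Of the 16 synthesis enzymes, 10 differed between MEKi and diluent in opposite ways in series 2 and 3, lower in series 2 and higher in series 3 (against 12.1% of all probe sets). Their median difference was −0.027 in series 1, −0.17 in series 2 and 0.34 in series 3, against −0.0020, 0.11 and 0.018 over all named genes, and with arrays centred it was −0.030, −0.26 and 0.33. In series 2, 3 were higher and 13 lower with MEKi (2 and 14 with arrays centred, where Sc5d was lower), and in series 3, 12 were higher and 4 lower. Series 1 had 6 higher and 10 lower. Mvd, Fdft1 and Msmo1 were lower in both series and Ebp and Tm7sf2 higher in both. With arrays centred, 10 of 16 again had opposite directions, against 23% of probe sets. The pattern was noticed in these values and was not tested.

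**Figure D2:**
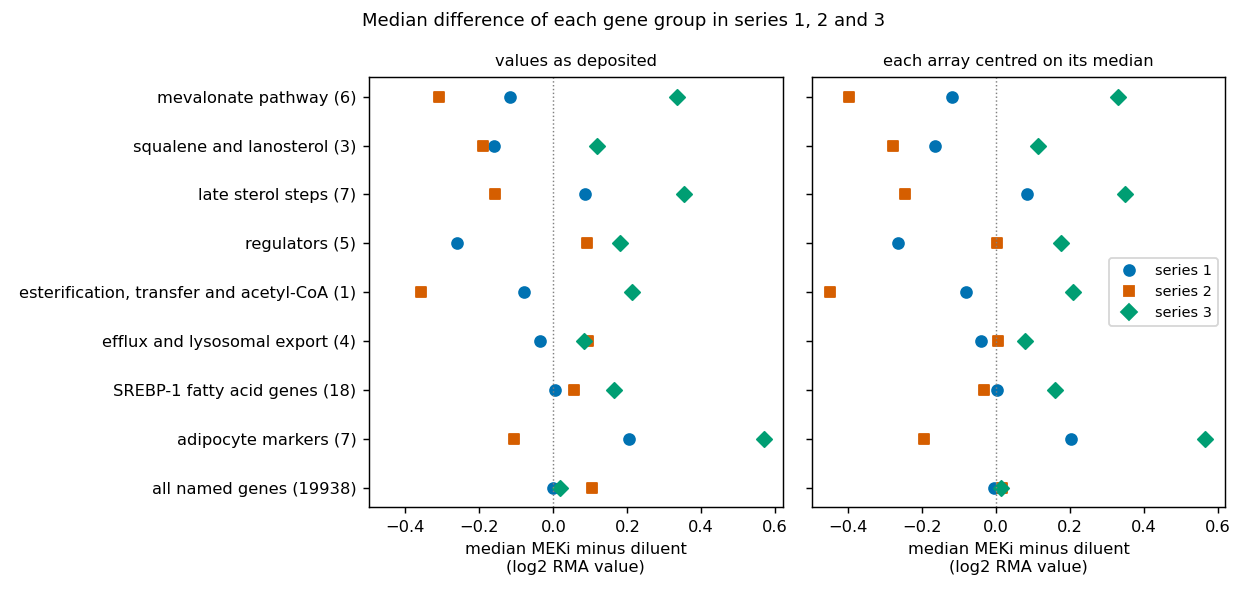
Median difference in log2 signal, MEKi minus diluent, in series 1, 2 and 3 for the role groups, other gene lists and all named genes (number of genes in brackets), as deposited on the left and with each array centred on its median on the right. The mevalonate enzymes were at −0.31 in series 2 and 0.34 in series 3 as deposited, and all named genes lay between −0.0020 and 0.11.

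By role, the mevalonate enzymes had medians of −0.12, −0.31 and 0.34 in series 1, 2 and 3, the squalene and lanosterol enzymes −0.16, −0.19 and 0.12, and the late enzymes 0.086, −0.16 and 0.35. All 6 mevalonate enzymes were lower with MEKi in series 2, and 5 of 6 were higher in series 3, the exception being Mvd. Regulators had −0.26, 0.092 and 0.18, with 0.0033 in series 2 when arrays were centred. In series 1, 5 of 5 were lower with MEKi, Srebf1 by very little (−0.015), against 10079 of 19938 named genes. The efflux and lysosomal genes had −0.037, 0.094 and 0.083, with 0.0055 in series 2 when arrays were centred. The median SD of a gene's 3 differences was 0.24 for synthesis enzymes and 0.13 for all named genes.

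Adipocyte markers, like the synthesis enzymes, had their lowest difference in series 2 and their highest in series 3. Their median difference was 0.21, −0.11 and 0.57 in series 1, 2 and 3, with 7 of 7 higher with MEKi in series 3 and 5 of 7 lower in series 2. In the adjusted limma test 0 of 7 passed, against 0.159% of all probe sets (lowest adjusted p = 0.336). At an unadjusted p under 0.05 there were 3 of 7, against 9.89%. The part of adipocyte markers in the sterol differences was not tested, and in bulk RNA more cells of a type and more RNA per cell cannot be told apart.

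A large share of the sterol genes differed in level between series, whichever the treatment. The median size of the difference between series 2 and series 1 was 0.53 over the 26 members, against a median size of 0.088 for the MEKi log2 fold change. The median difference between series 3 and series 1 was smaller, at 0.24. The MEKi fold change averages 3 pairs of unlike sign, with member medians of −0.068, −0.13 and 0.21 in series 1, 2 and 3. In an F test of the series with treatment as a term, added after the values by array were seen, 11 of 26 members passed an adjusted p under 0.05 (42.3%, against 7.69% of all probe sets). Over the brighter probe sets only, which held all 26 members, 14 of 26 passed, against 14.5%. The 11 members were 8 of 16 synthesis enzymes (Sqle, Hmgcs1, Msmo1, Idi1, Fdft1, Lss, Dhcr7 and Nsdhl), the regulators Insig1 and Srebf2, and Abca1. All were lower in series 1 than in series 2, and 0 of 26 passed when series 1 was left out (against 0.641% of probe sets), 8 without series 2 (against 8.13%) and 16 without series 3 (against 8.25%). Mvd missed the threshold narrowly (adjusted p = 0.0502), and Ebp (0.669), Npc1 (0.557) and Npc2 (0.920) had among the highest adjusted p-values.

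**Figure D3:**
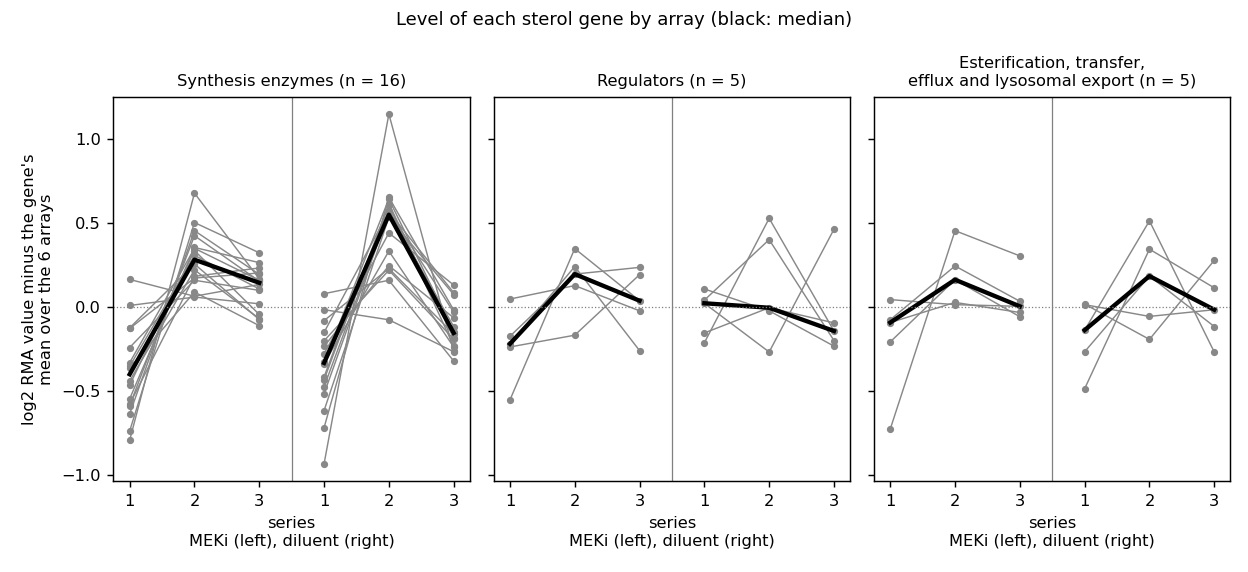
Log2 signal of each measured gene on each array minus its mean over the 6 arrays, by series number, MEKi left of diluent in each panel, for 16 synthesis enzymes, 5 regulators and 5 transport genes (grey lines are genes, black lines their median). The median of the synthesis enzymes was lowest in series 1 and highest in series 2 in both conditions.

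Idi1 had the widest difference between series, with means of 8.40 in series 2 and 6.62 in series 1, or 3.43-fold (difference 1.78, SE 0.19, limma F test adjusted p = 0.00705). The same difference was 1.47 within MEKi arrays and 2.09 within diluent arrays, so that it appeared in both conditions. Hmgcs1 was 2.47-fold higher in series 2 than in series 1 (1.30, SE 0.13, adjusted p = 0.0041), Sqle 2.17-fold (1.12, SE 0.096, adjusted p = 0.00216) and Lss 2.03-fold (1.02, SE 0.14, adjusted p = 0.0173). Abca1, which acts in export rather than synthesis, differed by 1.00 on the log2 scale (SE 0.12, adjusted p = 0.00857). Dhcr7, Msmo1, Nsdhl, Insig1 and Fdft1 were 1.99-, 1.89-, 1.80-, 1.77- and 1.61-fold higher, and Srebf2 1.33-fold. Ebp did not share this, with a difference of −0.077 (SE 0.10).

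Series 2 was above series 1 in both MEKi and diluent arrays for 21 of 26 members and for 15 of 16 synthesis enzymes, Ebp being the exception. The share over all probe sets was not computed. The median difference between series 2 and series 1 was 0.53 over the members and 0.069 over all named genes. The order of series 2 above series 3 above series 1 held in both conditions for 14 of 26 members and 11 of 16 synthesis enzymes, against 10.2% of all probe sets. The median size of the difference between series 2 and series 1 was 0.77 for synthesis enzymes and 0.13 for all named genes, whereas the median size of the MEKi fold change was 0.056 and 0.075 on the log2 scale. Between series 3 and series 1 the median difference was 0.36 for synthesis enzymes and 0.029 for all named genes. The median level of the 16 enzymes was 8.34, 8.74 and 8.70 on the MEKi arrays of series 1, 2 and 3, and 8.27, 8.86 and 8.39 on the diluent arrays.

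**Figure D4:**
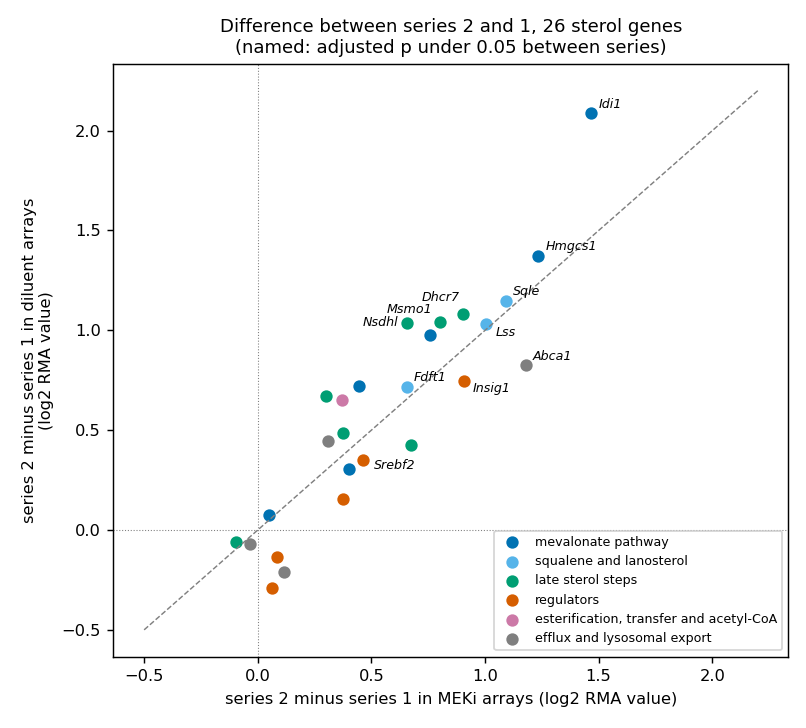
Log2 difference between series 2 and series 1 of the 26 measured genes, in MEKi arrays (horizontal axis) and in diluent arrays (vertical axis), coloured by role, with the line of equal differences and the names of the 11 genes past the adjusted threshold between series. Idi1 lay farthest out, at 1.47 in MEKi arrays and 2.09 in diluent arrays. On both axes 21 of 26 genes were above 0, and the share over all probe sets was not computed.

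What separated the series other than their number is not given in the sources used here. Adipocyte markers also differed between series, with 5 of 7 passing (Adipoq, Plin1, Fabp4, Cidec and Pparg), against 7.69% of all probe sets, and a median difference of 0.86 between series 2 and series 1. Of the 7 leukocyte markers, Lyz2 (adjusted p = 0.00608) and Cd68 (adjusted p = 0.00276) passed the same limma F test. Cidec, a lipid droplet protein, had 8.06, 10.74 and 10.47 with MEKi and 7.86, 10.92 and 9.42 with diluent, lowest in series 1 like the sterol enzymes and with opposite pairs in series 2 and 3. The part of these markers' cell types in the sterol levels was not tested.

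Other sterol genes outside the 28 were read from a list of 32, of which 28 were measured. None passed the adjusted test for MEKi, and 4 of 28 had an unadjusted p under 0.05, against 9.89% of all probe sets. Gramd1c, below the array median on all 6 arrays (0.25, SE 0.083, adjusted p = 0.394), and Scarb1 (0.33, SE 0.13, adjusted p = 0.483) were fitted higher with MEKi, and Gramd1b (−0.24, SE 0.085, adjusted p = 0.423) and Stard5 (−0.23, SE 0.089, adjusted p = 0.463) lower. Scarb1, a receptor for high density lipoprotein, had 10.02, 10.55 and 10.64 with MEKi and 9.68, 10.59 and 9.94 with diluent, with its smallest difference in series 2. Gramd1b and Gramd1c encode Aster proteins, which carry cholesterol from the plasma membrane to the endoplasmic reticulum. Between series, 4 of the 28 passed, Gramd1b, Nus1, Lbr and Cyp51, against 7.69% of all probe sets. Cyp51, the lanosterol demethylase, had 7.15, 7.98 and 7.47 with MEKi and 7.43, 8.37 and 7.43 with diluent (series adjusted p = 0.0123), the highest pair being that of series 2.

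Fatty acid genes under SREBP1 were a list of 18, all measured, with a median log2 fold change of 0.046. Their median differences were 0.0056, 0.055 and 0.16 in series 1, 2 and 3, and −0.034 in series 2 with arrays centred. None passed the adjusted test, 4 of 18 had an unadjusted p under 0.05 (against 9.89% of all probe sets), and 6 of 18 passed between series (against 7.69%). Gpam, the acyltransferase that begins glycerolipid synthesis, had 10.76, 10.51 and 10.68 with MEKi against 10.34, 10.00 and 9.96 with diluent. Its groups did not overlap (1 of 18 in this list, against 7.86% of all probe sets). The log2 fold change of Gpam was 0.55 (SE 0.086, adjusted p = 0.110), larger than that of any cholesterol gene. Under an intensity trend with a robust prior its limma adjusted p was 0.0181. Fasn, the fatty acid synthase, had 10.50, 10.98 and 10.73 with MEKi and 10.22, 10.75 and 10.04 with diluent, higher with MEKi in each pair (0.40, SE 0.11, adjusted p = 0.298). Lpin1, a phosphatidate phosphatase, and Acaca, the acetyl-CoA carboxylase, had fold changes of 0.30 and 0.22 on the log2 scale. Of the 18, 6 were higher with MEKi in all 3 series (against 23.8% of all probe sets), or 4 with arrays centred (against 17.3%). Lower in all 3 series were 2 of 18 (against 7.98%), Elovl6 (−0.21) and Fads2 (−0.17).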

How the data were processed

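RNA from MS5 cells was hybridised to Affymetrix mouse Gene 1.0 ST arrays, 3 per condition. The authors normalized the arrays with RMA and analysed them in Partek, as their processing notes name, and deposited log2 values for 28853 probe sets, used as they are. Tool versions and the genome build are not given in the sources used here. Of the probe sets, 21789 name 1 gene, 1621 several and 5443 none.

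Differences between MEKi and diluent were fitted by lmFit and eBayes (limma 3.58.1, R 4.3.3) with series as a fixed block and Benjamini-Hochberg adjustment over all probe sets at a threshold of 0.05, leaving 2 residual and 5.17 prior degrees of freedom. The series number in the titles pairs the arrays, since each experiment gave 1 array per condition, and deviations from the group means correlated by 0.81, 0.59 and 0.62 within series, against −0.60 to 0.21 for other pairs.

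The members and gene lists were chosen with earlier results of these data known. Values of all arrays were printed for the 10 members with the largest fold change by size and for Srebf1, Srebf2, Insig1, Hmgcs1, Sqle and Abca1, with up to 4 genes of each other list. Idi1, Cidec and Cyp51 were chosen after their values were seen, as were the test between series and its alternatives. Alternatives left out the block, made it random, centred or further quantile-normalized the arrays, filtered dim or multiple-gene probe sets, averaged a gene's probe sets, used an intensity trend with a robust prior or array weights, left out each series, or used the methods' analysis of variance, with a change of at least 1.5-fold and a p limit that is printed as 0.05% and was read as 0.05. The limma fit was tested on simulated data. Array number limits the precision. Plots were made in Python 3.11.15 (matplotlib 3.10.9). Some genes of the pathway are not reported here.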

Additional observations from a re-analysis of the deposited data

How the results depend on the processing

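No cholesterol gene passed the adjusted threshold for MEKi under any alternative (0 of 312 recomputed values, smallest adjusted p 0.271), though 3 of 26 had an unadjusted p under 0.05. Their median log2 fold change of 0.027 ran from −0.023 (further quantile normalization) to 0.038 (array weights), and from −0.085 to 0.065 leaving out each series. Of the 312 values, 28 in 15 members changed sign, 18 of them on leaving out a series, and the cause was not tested. With arrays centred these were Pmvk (−0.021), Sqle (−0.028) and Abca1 (−0.012). With quantile normalization they were Pmvk (−0.038), Idi1 (−0.026), Sqle (−0.050), Sc5d (−0.017), Dhcr7 (−0.0047) and Abca1 (−0.020), and with array weights Lss (0.039). Leaving out each series gave ranges of −0.082 to 0.16 for Hmgcs1, −0.085 to 0.13 for Mvk, −0.12 to 0.097 for Pmvk, −0.16 to 0.29 for Idi1, −0.36 to 0.064 for Fdps, −0.052 to 0.047 for Sqle, −0.18 to 0.087 for Lss, −0.10 to 0.21 for Nsdhl, −0.0014 to 0.24 for Tm7sf2, −0.0020 to 0.062 for Sc5d, −0.12 to 0.18 for Dhcr7, −0.26 to 0.0022 for Insig1, −0.22 to 0.067 for Stard4, −0.062 to 0.15 for Abca1 and −0.21 to 0.054 for Npc1. Members with 1 direction numbered 6 over 3 series, 4 with centring, and 11 to 16 over the remaining 2 series when a series was left out. Members passing between series numbered 11, with 11 to 15 under other settings and 0 to 16 leaving out a series (0 without series 1). Among the SREBP1 fatty acid genes, Gpam (1 of 18) passed under an intensity trend with a robust prior.

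The count over all probe sets changed with several choices, the replicate block among them. It was 46 with the series as a block, 0 without it and 0 with it as a random block (consensus correlation 0.419), and neither changed a call for a cholesterol gene. The count was 0 with centring, 15 with quantile normalization, 25 over brighter probe sets, 115 with the intensity trend and robust prior, 0 by the methods' analysis of variance after adjustment (44 at an unadjusted p of at most 0.05 and 1.5-fold) and 2853 at an unadjusted limma p under 0.05. Leaving out a series gave 0 to 37 (14 without series 1, 0 without series 2 and 37 without series 3).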
